A study of Homo sapiens with 6 samples.

Results

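The small ribosomal subunit, or 40S subunit, reads the mRNA during translation, and most of its proteins carry the gene symbol RPS followed by a number. Genes were taken as small-subunit ribosomal protein genes when the symbol was RPS with a number and at most one of the letters A or X, or RPSA, in either deposited table. This gave 31 genes among the 10779 genes of the 2 tables. Translational efficiency was available for 28 of them and ribosome occupancy for 28, and 25 genes had both. RPS9, RPS18 and RPS25 had occupancy only, and RPS16 and RPS27 were among those with translational efficiency only.

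The data come from ribosome profiling of HEK293 cells, a line derived from human embryonic kidney, labelled as transfected with a control siRNA. In ribosome profiling, mRNA that is not covered by a ribosome is digested, and the ribosome-protected fragments (RPFs) are sequenced. There were 3 RPF libraries and 3 libraries of total RNA, numbered 1 to 3, from a single condition, so that genes and not treatments were compared, and all cells had received cycloheximide at 100 µg/ml before lysis. VIM, NEFM and NEFL, which HEK293 cells are known to express, were present in both tables, and PAX2 in neither.

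The proteins of the small subunit bind the 18S rRNA and one another in fixed proportions, with each protein present as a single copy in a subunit. Together with this rRNA they make up the head, body and platform of the subunit, and some of them lie along the path of the mRNA or near the decoding centre. Their mRNAs are among the most abundant in dividing cells, are short, and are known as TOP mRNAs because they begin with a cytidine and a run of pyrimidines, which ties their translation to nutrient signalling through mTOR. Loss of a copy of several of these genes causes Diamond-Blackfan anaemia.

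The annotated first bases are shown because they are the shared feature by which these mRNAs are known. RefSeq start sites on GRCh38.p14 were listed for 24 of the 31 genes, and in 17 of them (70.8%) the first base was C and at least 4 further pyrimidines followed on the transcribed strand, against 4.04% of 27305 annotated starts and 5.80% of the 6374 starts of genes with translational efficiency. The sequences run from 5 bases before the annotated start to 15 bases into the transcript, and capitals mark the unbroken run of pyrimidines from the first base. The first 4 genes had the highest and the last 4 the lowest translational efficiency among those listed.
RPS29, chr14:49598696-49598715, minus strand: gcagcTggcagcggtggttg
RPS28, chr19:8321491-8321510, plus strand: acgtgactcctctccgccag
RPS26, chr12:56041913-56041932, plus strand: acctcgattttcttccgcca
RPS23, chr5:82278340-82278359, minus strand: cttctCTCTTTCgctcaggc
RPS14, chr5:150449725-150449744, minus strand: ccactCTCTCTTTCCggtgt
RPS3, chr11:75399513-75399532, plus strand: cacttCCTTTCCTTTCagcg
RPS10, chr6:34426055-34426074, minus strand: tccttCCTTTCCagccccgg
RPS16, chr19:39435935-39435954, minus strand: gctttCCTTTTCCggttgcg

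The starts of RPS29, RPS28 and RPS26 did not have the run, and neither did those of RPS4X, RPS27A, RPS7 and RPS15. Among the genes with translational efficiency, its median was 1.63 in the 14 with the run, with a range from 0.306 to 9.72, and 6.52 in the 7 without it, with a range from 1.23 to 33.0. The 2 ranges overlapped, the division was made after the values were known and was not tested, and the starts used in these cells were not measured.

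Translational efficiency, the deposited linear ratio of RPFs to total RNA, was higher for most small-subunit genes than for the typical gene. The family median was 1.84 and the median of all 8121 genes 0.385, which is a 4.79-fold difference. Each gene was compared with the median of all genes on log2(value + 0.01) with limma, adjusted by Benjamini-Hochberg over all genes. Of the 28 genes, 26 were higher and 1 was lower at an FDR of 0.05, and RPS3 did not pass. Because the replicates lay close together, 44.7% of all genes were called higher and 44.6% lower in the same test, so a call by itself says little about a gene. In replicates 1, 2 and 3 the family median was 1.72, 2.08 and 1.80, and the median of all genes was 0.3815, 0.3802 and 0.3876.

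**Figure D1:**
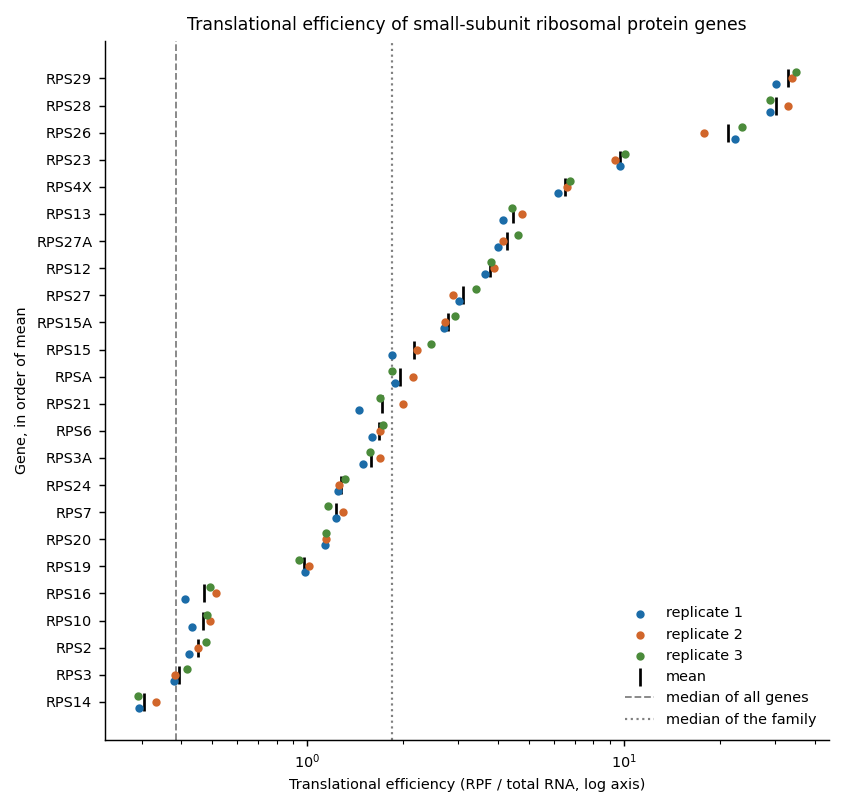
Translational efficiency (horizontal, log axis) of 24 small-subunit ribosomal protein genes, with each replicate as a point and the mean as a bar. Of the genes shown, RPS14 is lowest at 0.306, and RPS29, RPS28 and RPS26 lie far to the right of the dashed median of all genes.

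The family was far from uniform. The SD of log2 values between the genes was 2.04, against a median SD between replicates of 0.0823. Against the family median, 12 genes were higher and 13 lower by the same limma test, in which 97.3% of all genes were called against the median of this family, 8.08% as higher and 89.2% as lower. RPS21, RPSA and RPS15 did not pass, with adjusted p-values of 0.295, 0.244 and 0.0631. With the mean of the family as the centre, RPS21 and RPSA were called lower (limma, adjusted p = 0.00665 and 0.0116). Of the 27 pairs of neighbours in the order of the means, 13 had replicate ranges that overlapped and 14 did not.

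RPS29, RPS28 and RPS26 stood near the top of the order. All have been found mutated in Diamond-Blackfan anaemia, and RPS26 contacts the mRNA at the exit of its channel. RPS29, a small zinc-binding protein of the head, had 30.2, 33.8 and 35.0 in replicates 1 to 3 (33.0 ± 2.47, SD, n = 3), and RPS28 had 28.9, 32.8 and 28.9 (30.2 ± 2.27). The replicates of RPS29 and RPS28 overlapped, so their order is not set by these data. RPS26 had 22.4, 17.9 and 23.6 (21.3 ± 3.003), below every replicate of RPS28. Of all genes, 1.05% had a mean translational efficiency above 10.

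On the log2 scale the differences from the median of all genes were 6.39 ± 0.062 (SE) for RPS29, 6.26 ± 0.061 for RPS28 and 5.75 ± 0.092 for RPS26, with adjusted p-values in limma of at most 1.31e-06. Much of these coding sequences is also found in other genes, such as the pseudogene RPS28P7 for RPS28. The share of 30-base stretches of the CDS that recur in a transcript from another gene was 78.9% for RPS29 and 100% for RPS28 and RPS26. The part of this sharing in the translational efficiency was not tested.

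RPS23 and RPS4X followed at a distance. RPS23, a protein of the decoding centre, had 9.69, 9.38 and 10.1 (9.72 ± 0.359), and RPS4X, encoded on the X chromosome, had 6.19, 6.62 and 6.74 (6.52 ± 0.288). Their replicates did not overlap with each other or with those of any neighbour. RPS13 (4.45 ± 0.314) and RPS27A (4.26 ± 0.312) overlapped with each other, and RPS12 (3.78 ± 0.117) lay below them. RPS27 (3.10 ± 0.275) and RPS15A (2.78 ± 0.117) overlapped again.

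In the middle of the order, RPS15, RPSA, RPS21, RPS6 and RPS3A formed a run in which each gene overlapped with its neighbour. RPS6, the substrate of the S6 kinases, had 1.60, 1.70 and 1.74 (1.68 ± 0.0734). RPSA, also known as the laminin receptor precursor, had 1.90, 2.15 and 1.86 (1.97 ± 0.160). RPS21, RPS26 and RPS15 were the genes with the largest spread between replicates on the log2 scale, with SDs of 0.234, 0.212 and 0.206. The values of RPS21 were 1.45, 2.01 and 1.70, and those of RPS15, a head protein near the decoding centre, were 1.85, 2.21 and 2.45. Below this run came RPS24 (1.28 ± 0.0352), RPS7 (1.23 ± 0.0667), RPS20 (1.14 ± 0.00607) and RPS19 (0.9802 ± 0.0355). RPS19 is the gene most often mutated in Diamond-Blackfan anaemia.

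A gap separated these from genes under 0.5, among them RPS16, RPS10, RPS2, RPS3 and RPS14. RPS14, a protein of the platform whose reduced dosage is known from a form of myelodysplastic syndrome, was the only member below the median of all genes by test. It had 0.294, 0.333 and 0.292 (0.306 ± 0.0227), and all of these values were under the medians of all genes in the same replicates, which were 0.3815, 0.3802 and 0.3876. The difference was −0.32 ± 0.060 on the log2 scale (limma, adjusted p = 0.00472). RPS3, which lies where the mRNA enters the subunit, had 0.379, 0.382 and 0.417 (0.393 ± 0.0212), on both sides of those medians, and did not differ by test (log2 difference 0.03 ± 0.055, limma, adjusted p = 0.589). RPS2, which also lies at the entry of the mRNA, had 0.423, 0.453 and 0.480 (0.452 ± 0.0285), RPS10 had 0.434, 0.494 and 0.483 (0.471 ± 0.0320) and RPS16 had 0.411, 0.515 and 0.494 (0.473 ± 0.0553). Neighbours among these 3 overlapped, and their log2 differences from the median of all genes were between 0.23 and 0.29. The calls of RPS2 and RPS16 were lost without replicate 2 and without replicate 3, with limma adjusted p-values from 0.0582 to 0.0843. With the mean of all genes as the centre in place of the median, RPS2, RPS10 and RPS16 all lost their call (limma, adjusted p = 0.331, 0.108 and 0.187). Shared 30-base stretches made up 33.7% of the CDS in RPS14, 55.9% in RPS3, 89.3% in RPS2, 100% in RPS10 and 36.2% in RPS16.

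Shared sequence was common throughout the family. The share of 30-base stretches found in other genes ran from 17.5% (RPS21) to 100% (RPS10, RPS26, RPS27, RPS28 and RPS3A), with a median of 76.7% over the 31 genes. Across the 28 genes, translational efficiency and this share had a Spearman coefficient of 0.38, given as a description, since the genes share the same libraries. In the 7 genes with under 50% shared stretches, among them RPS6, RPS14, RPS16, RPS19 and RPS21, the median translational efficiency was 0.964. That is lower than the family median of 1.84 and above the median of all genes, and this limit of 50% was chosen after the data had been seen.

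By position in the subunit, 12 head proteins had a median translational efficiency of 1.66 and 16 proteins of the body and platform 1.84. RPS3 was lowest in the head, and the body and platform ran from RPS14 to RPS26. The 13 proteins with homologues in all domains of life had a median of 1.14, with 11 higher and RPS14 lower than the median of all genes, and the other 15 had a median of 2.18, all higher. The 10 genes of Diamond-Blackfan anaemia were all higher (RPS10 not with the mean as centre), with a median of 2.94 and RPS10 lowest, and the remaining 18 had a median of 1.70 with 16 higher. Of all genes, 44.7% were called higher and 44.6% lower in the same test. These are descriptions of groups whose ranges overlap, and the differences between the groups were not tested.

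Related genes were compared from lists of textbook knowledge. Their calls are to be read beside the 44.7% of all genes called higher and the 44.6% called lower. Of the other components of the 40S subunit, RACK1, a scaffold at the back of the head, had a translational efficiency of 0.275 ± 0.00700, lower than the median of all genes (limma, adjusted p = 0.000422). FAU, which encodes a ubiquitin-like protein fused to the ribosomal protein eS30, had 0.362 ± 0.0293 and did not differ (limma, adjusted p = 0.262). RPS27L, a paralogue of RPS27, had 6.46 ± 0.134, above each replicate of RPS27. Proteins of the large subunit had a median of 1.70, with 41 of 45 higher and 4 lower, from RPLP0 (0.137 ± 0.00576) to RPL7A (530.4 ± 34.8). Other TOP mRNAs, which encode translation factors and related proteins, were all higher in the 16 of 17 that were present, with a median of 1.58 and a range from NACA (0.442 ± 0.0109) to EEF1B2 (162 ± 45.8).

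Of 22 assembly factors, 15 were higher and 5 lower than the median of all genes, with a median of 0.801 and a range from PDCD2 (0.205 ± 0.0228) to LTV1 (2.18 ± 0.0575). The 4 RPS6 kinase genes that were present of 10 were all lower, from RPS6KB2 (0.0549 ± 0.00723) to RPS6KA5 (0.245 ± 0.00806). The list for the mitochondrial small subunit was made only by symbols starting with MRPS, whatever the place of the protein. Of its 26 genes, 22 were higher and 1, MRPS22 (0.290 ± 0.00966), was lower, with a median of 1.145 and MRPS36 (11.4 ± 1.48) highest. Here too, 44.7% of all genes were called higher and 44.6% lower, and the differences between lists were not tested.

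**Figure D2:**
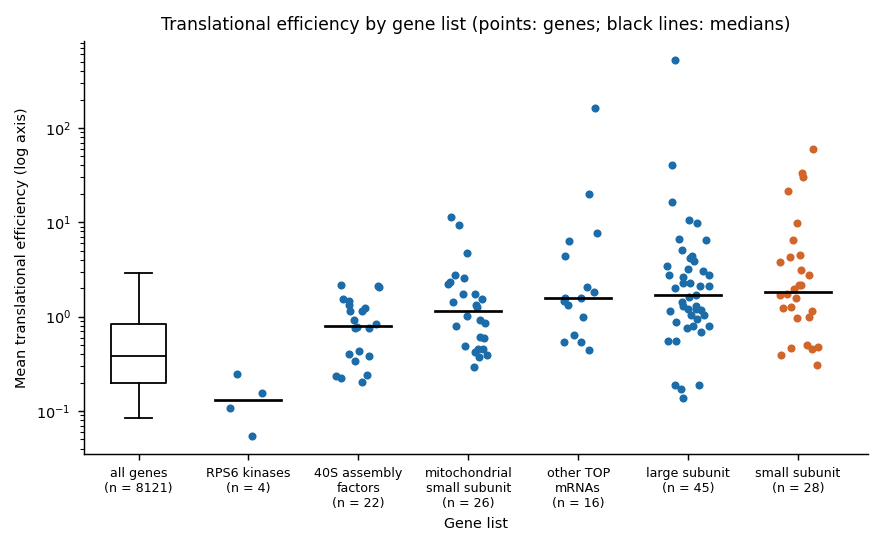
Mean translational efficiency over 3 replicates (vertical, log axis) for the small-subunit genes and related lists, with a point for each gene and a black line for each median. For all genes, the box gives the quartiles and the whiskers the percentiles 5 and 95. The small subunit (median 1.84), the large subunit (1.70) and other TOP mRNAs (1.58) lie above the assembly factors (0.801) and the RPS6 kinases (0.132).

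Ribosome occupancy gave a second measure for 28 of the genes, namely the in-frame RPFs at each codon, normalized for library size and divided by the abundance of the mRNA, with the replicates combined by the authors. Mean occupancy per codon of the CDS had a median of 0.0597 over the small-subunit mRNAs and 0.0450 over all 9570 transcripts, and 20 of the 28 lay above the latter. The values were sums of whole multiples of 3 steps in each transcript, so that each of the 4863 values above 0 in the 28 mRNAs could be divided into whole reads of 3 components, which probably correspond to the replicates but were not assigned to them. Over the 28 coding sequences these came to 2944128 reads, with 1275465, 1000889 and 667774 in components 1, 2 and 3. Single mRNAs had from 18665 (RPS28) to 350070 reads (RPS4X).

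The worth of a read also gives the abundance of each mRNA, since occupancy is divided by it. All 28 mRNAs were among the 5% most abundant transcripts of the table, and RPS4X was the most abundant transcript of all. Relative to the median transcript, abundance ran from 18.9 (RPS23) to 229 (RPS4X), with a median of 87.8.

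Occupancy was highest on RPS23, with 0.460 per codon, followed by RPS21 with 0.190 and RPS26 with 0.166. Without the first 15 and last 5 codons, RPS23 stayed highest with 0.429. RPS21 then fell to 0.104, below RPS27A (0.147), RPS26 (0.145), RPS24 (0.137), RPS29 (0.136) and RPS3 (0.108). The components of RPS23 contributed 0.158, 0.150 and 0.151 to its value. It was lowest on RPS2, with 0.00801, to which the components contributed 0.00278, 0.00274 and 0.00250, and then on RPS14 (0.0321) and RPS10 (0.0329). The value of RPS23 was 57.4 times that of RPS2. RPS2, RPS14 and RPS10 were thus among the lowest by occupancy and by translational efficiency. RPS23 and RPS2 were also the least abundant of the mRNAs and one of the most abundant (215 times the median transcript), and across the 28 mRNAs occupancy and abundance, which is its denominator, had a Spearman coefficient of −0.61. The transcript used for RPS23 had an annotated 3′UTR of 938 codons, against a family median of 28. Abundance is scaled by transcript length, and the part of this long 3′UTR in the values of RPS23 was not tested.

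The 2 measures did not order the family in the same way. Over the 25 genes with both, the Spearman coefficient was 0.35, against 0.69 over the 6912 genes of both tables, and both are descriptions from shared libraries. RPS28 had rank 2 of the 25 by translational efficiency and rank 20 by occupancy, with 0.0417 per codon. RPS3 had rank 24 by translational efficiency and rank 8 by occupancy, with 0.113. RPS26 and RPS29 were high in both, with ranks 3 and 4 by occupancy. Both measures were lower on longer coding sequences, with Spearman coefficients of −0.44 (25 genes) and −0.42 (28 mRNAs) against the number of codons, and occupancy had a coefficient of −0.11 against the share of sequence found in other genes.

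**Figure D3:**
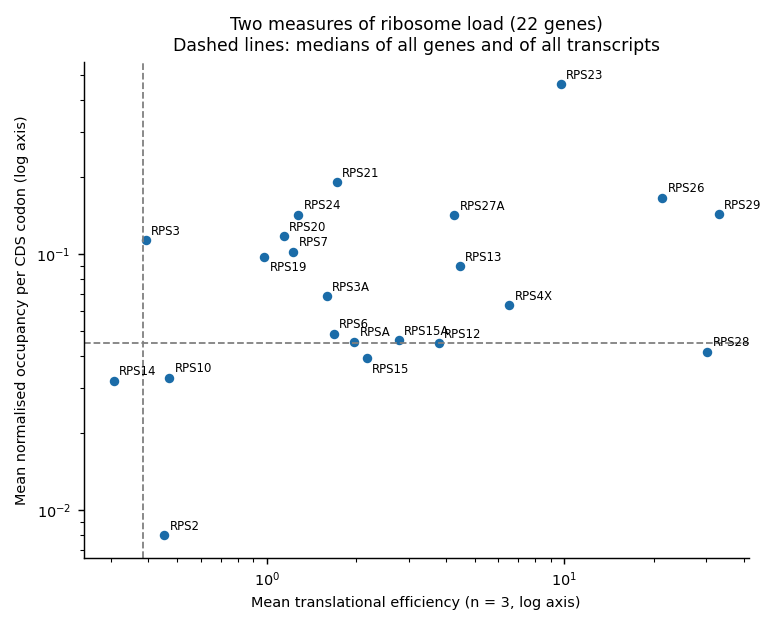
Mean normalised occupancy per codon of the CDS (vertical, log axis) against mean translational efficiency (horizontal, log axis) for 22 small-subunit genes with both values. RPS23 is high in both and RPS2 low by occupancy, while RPS28 has a translational efficiency of 30.2 with an occupancy of 0.0417.

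Along the CDS, the reads gathered at few codons. The 10 highest codons of each mRNA held between 25.6% (RPS4X) and 71.7% (RPS28) of its CDS occupancy, with a median of 43.5%, while 260 of the 4760 codons (5.46%) had no read. RPS4X has 263 codons and RPS28 has 69, so the share of a fixed number of codons also depends on length. The profiles of the 3 components were alike, with Pearson coefficients between pairs of components from 0.935 to 0.992 across the codons of an mRNA. Share of the highest codon ran from 3.54% in RPS4X to 20.5% in RPS28, with a median of 7.96%.

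The highest codons of the 4 mRNAs with the largest shares are shown in a window of 9 codons, read from GRCh37, with the highest codon in capitals. It stands in the middle of the window in RPS28 and RPS14, and the window begins or ends with the CDS in RPS26 and RPS21. All lie in coding exons. The spans of RPS21, RPS14 and RPS26 include an intron, which was left out of the sequence.
RPS28, codon 34, chr19:8386837-8386863, plus strand: gtgcgcgtggaaTTCatggacgacacg
RPS21, codon 82, chr20:60963404-60963522, plus strand: gatggcatcgtctcaaagAACttttga
RPS14, codon 47, chr5:149826523-149827170, minus strand: catgtcactgatCTTtctggcaaggaa
RPS26, codon 1, chr12:56435951-56436232, plus strand: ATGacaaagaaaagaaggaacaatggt

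In RPS28, codon 34 held 20.4%, 17.96% and 22.8% of the CDS reads of components 1 to 3. Their 95% Wilson intervals did not overlap and together reach from 17.02% to 24.1%. The next codon, 35, held a further 17.7% of the occupancy. All of the sequence around them is shared with other genes. In RPS21, the reads stood at codon 82, just before the last sense codon, with 20.2%, 19.6% and 19.7% in the components, and the following codon in rank, codon 6, held 7.49%. The 3 shares of RPS21 were within their counting error of one another.

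In RPS14, codon 47 held 12.3%, 19.3% and 16.1% of the reads. These shares differed by more than their Wilson intervals, of which the lowest was 11.9% to 12.7% and the highest 18.8% to 19.9%. Codon 102 was second with 9.02%. In RPS26 the highest codon was the start codon, with 11.1%, 12.3% and 15.7% of the reads, again further apart than their intervals, which reach from 10.7% to 16.3%. The intervals cover counting error only.

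**Figure D4:**
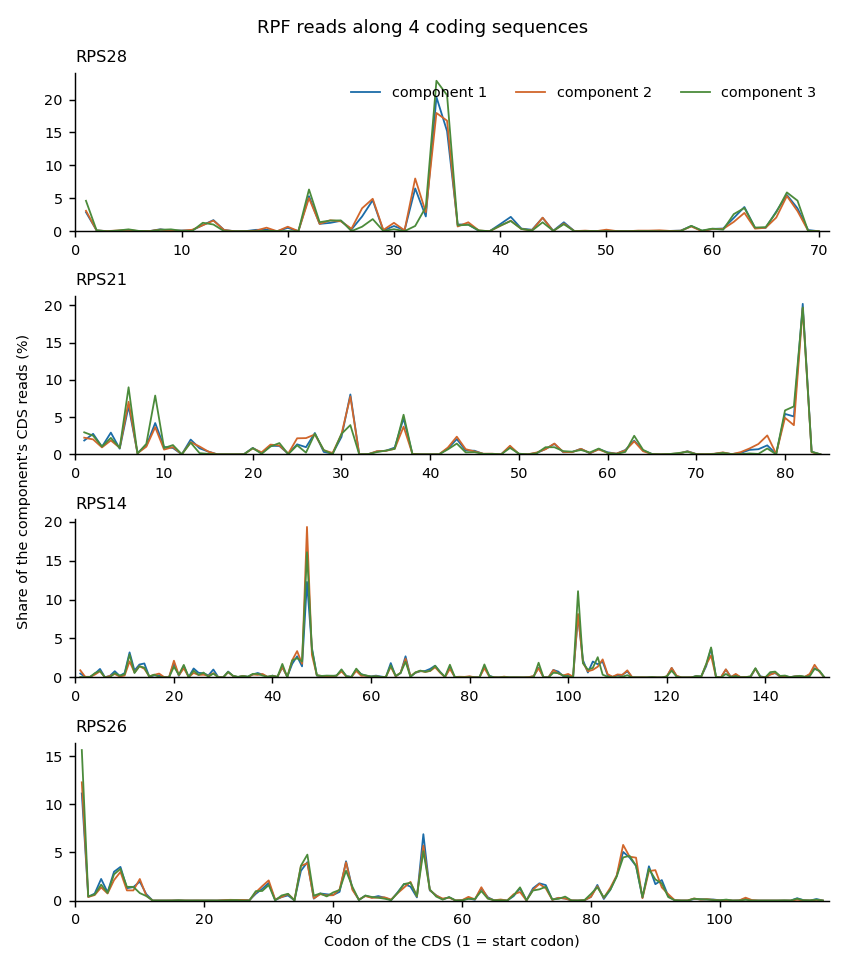
Share of the CDS reads of each component (vertical, %) at each codon (horizontal, 1 is the start codon) in RPS28, RPS21, RPS14 and RPS26, the mRNAs with the largest share in 1 codon. The 3 components rise at the same codons, at codon 34 of RPS28, codon 82 of RPS21, codon 47 of RPS14 and the start codon of RPS26.

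The start codon was the highest codon in 3 mRNAs. It held 13.004% of the CDS occupancy in RPS26, 9.66% in RPS20, a head protein, and 7.13% in RPS24, while the median over the family was 0.863%. It was above the mean of the CDS in 16 of the 28 mRNAs. No read lay on it in RPS9 or RPS15A, which allows up to 0.00608% and 0.00365% of their CDS reads (3 reads). At the stop codon there were 16 reads over all 28 mRNAs. By the study's methods, each RPF was placed on a codon with a fixed offset. That choice sets the codon on which a terminating ribosome is counted, so the low count there is not read as a result.

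The distribution between the ends of the CDS differed widely. The ratio of mean occupancy in the first 25 codons to that in the last 25 sense codons had a median of 1.39, above 1 in 18 mRNAs and below 1 in 10, and in all 28 the 3 components fell on the same side of 1. RPS3 had the highest ratio, with 26.0 (0.292 per codon in the first and 0.0112 in the last 25), and its components gave 23.34, 27.36 and 27.95. RPS15 had 21.1 and RPS26 had 7.98, also with more reads at the start. RPS2 had the lowest, with 0.0627, since its first 25 codons had 0.000576 per codon, and its components gave 0.0785, 0.0708 and 0.0340. RPS19 and RPSA followed with 0.272 and 0.274.

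**Figure D5:**
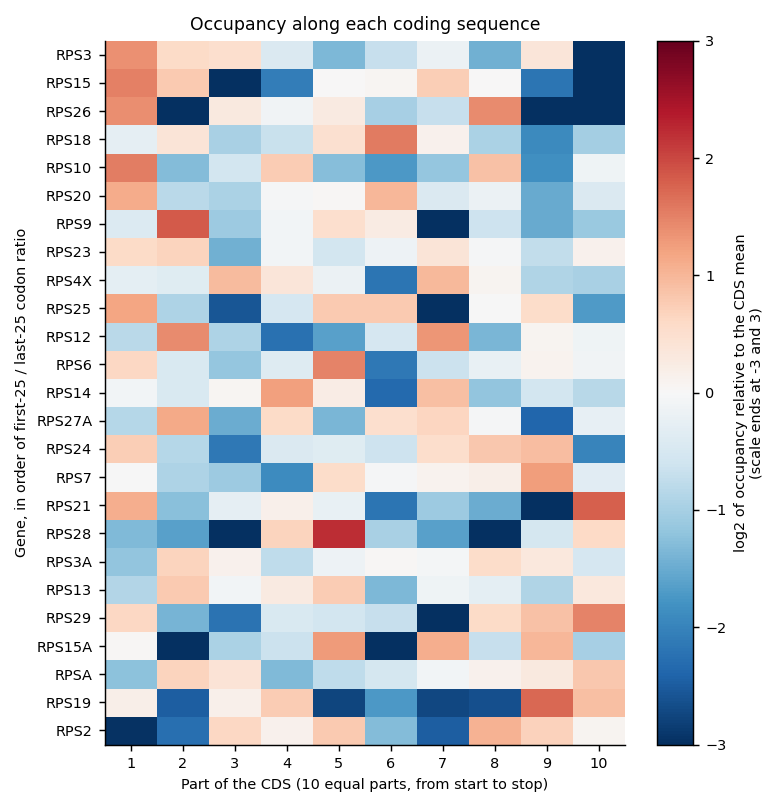
Mean occupancy in 10 equal parts of the CDS (horizontal, from start to stop) relative to the mean of the CDS, as log2 in colour, for 25 small-subunit mRNAs (vertical) in order of the ratio of the first to the last 25 codons. RPS3, RPS15 and RPS26 at the top are high in the first part and low in the last, and RPS2 at the bottom is low in the first part.

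Occupancy was also averaged by codon type. Relative to the mean of each mRNA and without the first 15 and last 5 codons, TCT (1.64), GGA (1.55), TAT (1.53) and GTT (1.46) had the highest occupancy among the 54 codon types with at least 20 positions in the small-subunit mRNAs, and CGC (0.399), AGT (0.427), AAA (0.461) and TCC (0.466) the lowest. In the other transcripts the same codons had 1.13, 1.63, 1.33 and 1.19, and 0.762, 0.620, 0.524 and 0.629. Over the 54 types the Spearman coefficient between the family and all others was 0.65.

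RPS27A is made as a fusion of ubiquitin and the ribosomal protein, which are separated after translation. Its ubiquitin part, codons 1 to 76, had a mean occupancy of 0.145, and its ribosomal part, codons 77 to 156, had 0.141. The ratio was 1.03, with 1.01, 1.05 and 1.01 in the components, so that the 2 parts of the same mRNA were covered to nearly the same extent. Of its 30-base stretches, 96.6% were shared with other genes.

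In the 5′UTR, reads in the frame of the CDS were few on most mRNAs. They came to 12369 over the 28 mRNAs, and the 4 with most, RPS24, RPSA, RPS20 and RPS26, held 83.6% of these. The 5′UTR took a median of 0.0310% of the summed occupancy in the family and 0.364% over all transcripts, while the annotated 5′UTRs were shorter, with medians of 21.5 and 56 codons. RPS15A, RPS2 and RPS3 had no read there, and their annotated 5′UTRs of 6, 4 and 15 codons left few positions for one. A count of 0 allows up to 0.00173% of the 173249 CDS reads in RPS3 and up to 0.00646% in RPS2.

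Occupancy per 5′UTR codon was highest in RPSA, with 0.0167, followed by RPS24 with 0.00876 and RPS26 with 0.00824. In RPSA 2537 reads lay mainly 9, 10 and 12 codons before the start codon, with 765, 675 and 455 reads. In RPS24 most of the 4109 reads lay on the 3 codons just before the start codon, with 1362, 1107 and 1243 reads from the nearest to the farthest. In RPS26 1200 of 1784 reads lay on a single codon, 68 codons before the start, with 513, 416 and 271 reads in the components. RPS20 had 1293 of its 1916 reads 17 codons before the start. Each of these positions had reads in all 3 components.

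The 3′UTRs were nearly empty, with 567 reads over the 28 mRNAs and none in 5 of them, RPS3, RPS3A, RPS6 and RPS12 included. A count of 0 allows up to 0.00671% of the CDS reads in RPS12. Occupancy per codon was highest in RPS21 (0.000742), RPS29 (0.000726) and RPS28 (0.000266). RPS29 had 174 reads, of which 107 lay on the second codon after the stop codon, and RPS28 had 103 reads, of which 44 lay 31 codons after it. The 84 reads of RPS21 were spread out, with at most 14 on a codon. The 3′UTR took a median of 0.00614% of the summed occupancy in the family and 0.0165% over all transcripts.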

How the data were processed

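HEK293 cells were profiled in 3 RPF and 3 total RNA libraries of a single condition. According to the study's methods, adapters, PCR duplicates and unique molecular identifiers were removed, rRNA and tRNA reads set aside, RPFs placed on the hg19 transcriptome by bowtie and total RNA counted with HTseq-count, with 1 transcript used per gene. The submitters' processing notes name Cutadapt 1.16, Bowtie 1.1.2, TopHat2 2.1.1 and HTSeq 0.9.1. The authors deposited translational efficiency per replicate as a linear ratio. Its formula is not stated and its depth is unknown. The deposited occupancy values are in-frame RPFs per codon, normalized for library size, divided by TPM and combined over replicates, so they have no replicate error.

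Translational efficiency was tested with limma 3.58.1 (R 4.3.3) on log2(value + 0.01) with no filter, each gene against the median of all genes or of the 28 members (whose own error is not included), with Benjamini-Hochberg adjustment over 8121 genes at an FDR of 0.05. Whether the replicates were separate cultures is not stated, so p-values measure only the spread between these samples. By the methods, each total RNA sample is from the lysate of its RPF sample, so the pairing is inside the ratio. Log2 values of the members correlated between replicates with Pearson coefficients of 0.998, 0.999 and 0.998.

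Occupancy values were split into whole reads of 3 steps per transcript (relative tolerance 1e-13, chosen after seeing the data), and both procedures were tested on simulated data. In the occupancy data 31 broken lines were rejoined, none of a member. Sequences and coordinates were read from GENCODE transcripts on GRCh37 (the build of hg19) and from RefSeq starts on GRCh38.p14, and 28 of 28 members with occupancy matched by symbol and CDS length. Where a stretch of 30 bases recurs in another gene, RPFs cannot be assigned to one gene by sequence.

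The members, lists and tests were chosen with earlier results of these data known. By rule, the genes described in most detail were the 4 highest and 4 lowest by translational efficiency, the 3 with the largest spread between replicates, the 3 highest and 3 lowest by occupancy, the 4 with the largest share in 1 codon and the 3 highest by occupancy in each UTR, and from the lists the highest and the lowest. Values of 4 members are not reported here, though all members stay in the counts and medians. Other members named were chosen after their values were seen. Alternatives were another pseudocount, centre, filter, variance model, left-out replicates and other summaries along the CDS. Python 3.11.15, numpy 2.4.6, pandas 2.3.3, scipy 1.17.1 and matplotlib 3.10.9 were used.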

Additional observations from a re-analysis of the deposited data

How the results depend on the processing

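Of 360 values of single members under an alternative, 342 kept their direction and their side of an FDR of 0.05. The mean of all genes as the centre shifts the difference of each gene from the centre by −0.17 on the log2 scale. With this centre, 7321 of 8121 genes were called in either direction, against 7249 with the median. Of the members, 23 were called higher, and RPS2 (0.06), RPS10 (0.12) and RPS16 (0.13) were no longer called. RPS3 then turned to −0.13, and it lay between −0.00213 and 0.0530 with a replicate left out, and was called in neither case. The mean of the family as the centre shifts the differences from the family centre by −0.34. With it, 11 members were higher and 15 lower. RPS15 (−0.12) and RPSA (−0.25) turned below the centre, and RPSA and RPS21 (−0.46) were called lower. With a replicate block, in which each replicate is set to its own median, 7265 genes, 26 members higher and 1 lower were called against the median of all genes, and 11 higher and 11 lower against the family median; RPS3A and RPS6 were among those that lost their call. Against the family median, RPS6 also lost it without each replicate in turn (limma, adjusted p from 0.0583 to 0.238) while RPS15 gained one without replicate 1 (0.0219). Without replicates in turn, the members called higher than all genes were 24 to 26, and those higher and lower than the family median 11 to 13 and 12. In these settings, 7015 to 7091 of 8121 genes were called against the median of all genes in either direction.

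The family median of translational efficiency moved to 0.964 in the 7 members with under 50% shared stretches, and no value could be had for members under 5%, since there were none. Family median occupancy moved from 0.0597 to 0.0186 with the median over codons, 0.0595 without the first 15 and last 5 codons and 0.0567 without the highest codon. The ratio of the first to the last codons was 1.26 with 50 codons at each end in the 25 mRNAs of at least 100 codons. As shares of summed occupancy, the 5′UTR took 0.0310% and the 3′UTR 0.00614%, which are other units than 0.000261 and 1.19e-05 per codon.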
